A study of Mus musculus with 8 samples.

Results

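Translation initiation factor genes were examined in mouse neural crest precursor cells and in tumour lines derived from them. The members were all probe sets with a single gene symbol starting with Eif1, Eif2, Eif3, Eif4, Eif5 or Eif6, without the Eif2ak kinases, Eif2s3x and Eif2s3y. This gave 115 of 45101 probe sets, which belonged to 41 of the 18193 genes that could be named by 1 symbol. Each gene is described by its brightest probe set, and its other probe sets are given where they differ. Eif1, Eif2s1 and Eif4g1 were not analysed here.

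RNA was hybridised to 8 Affymetrix arrays, 1 per sample. The parental group held 3 arrays of JoMa1, a neural crest precursor line known to carry a tamoxifen-activated MYC fusion. A single array was labelled as JoMa1 given a GFP control by transfection. The tumour group held 4 arrays, numbered 3 to 6, of lines derived from separate tumours that JoMa1 carrying MYCN formed in immunocompromised mice. All groups go back to 1 line, and the labels do not state whether tamoxifen was used.

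Initiation factors bring the first tRNA and the small ribosomal subunit to a messenger RNA, scan to the start codon and let the large subunit join. eIF1, eIF1A, eIF3 and eIF5 act on the small subunit, eIF2 carries the initiator tRNA and is recharged by eIF2B, and eIF4E, eIF4G and eIF4A open the capped end. eIF4E-binding proteins hold eIF4E back until mTOR phosphorylates them. MYC proteins pair with MAX on the DNA letters CACGTG, called an E-box, and several initiation factor genes, Eif4e among them, are known MYC targets.

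Levels are log2 values made by the authors with RMA, differences are on the same log2 scale, and SE is the standard error of a difference from the fit. A gene was called at a limma p-value, adjusted over all 18193 genes, under 0.05. The label of the single array was checked with Mycn, whose brightest probe set read 7.29 to 7.49 in parental arrays, 11.73 in the array labelled GFP-transfected and 14.08 to 14.26 in tumour lines. Another Mycn probe set ran the other way, at 8.01 to 8.23 in parental arrays, 4.33 in the array labelled GFP-transfected and 4.53 to 4.69 in tumour lines, and a dim one was not called. With both called probe sets that array lay on the side of the tumour lines. By Mycn that array therefore goes against its label, and each direction drawn from it has this limit. Over all probe sets with 1 symbol, its correlation was 0.974 to 0.976 with parental arrays and 0.935 to 0.946 with tumour lines. Parental arrays correlated with each other at 0.997 to 0.998. The brightest Myc probe set read 8.52 to 8.75 in parental arrays, 7.23 in that array and 9.47 to 10.61 in tumour lines. Of 11 neural crest markers, Snai2 (mean 11.55), Ets1 (11.36) and Pax3 (10.55) were bright in parental arrays, while Foxd3 (4.59), Ngfr (5.40) and Tfap2a (5.66) were dim. The bacterial trpn control probe sets, which mark the floor, read 3.84 to 4.04. Of these 11 markers, Snai2 and Msx1 rose and Ets1 and Pax3 fell in tumour lines. Of 7 leukocyte markers measured, Cd14 and Cd68 rose in tumour lines. The log2 of the summed levels of these 7 was 8.98 to 9.12 in parental arrays, against 9.84 to 10.24 in tumour lines, with Ptprc (4.08) and Itgam (4.13) near the floor in tumour lines. In tumour lines against parental arrays, none of 5 endothelial, 2 red cell and 3 epithelial markers was called, and of 3 genes of dividing cells Mki67 fell by 0.60. The bioB spike-in control read 8.18 in parental array 3 and at least 9.08 in the other arrays. The Actb 3' minus 5' difference, a sign of RNA quality, was 0.627 to 0.641 in parental arrays, against 0.517 to 0.613 in tumour lines, and that of Gapdh was 0.053 to 0.078 and 0.092 to 0.151. The part of these differences in the results was not tested.

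The promoters of Eif5a2 and Eif4ebp2 are shown first, because these genes had the largest rise and the largest fall of all members by brightest probe set. Each is the 250 bases before the start site, 5′ to 3′, from RefSeq on GRCm38.p6, with E-boxes in capitals. The Eif5a2 stretch is chr3:28781027-28781276 on the plus strand, and the Eif4ebp2 stretch is chr10:61452670-61452919 on the minus strand.
Eif5a2: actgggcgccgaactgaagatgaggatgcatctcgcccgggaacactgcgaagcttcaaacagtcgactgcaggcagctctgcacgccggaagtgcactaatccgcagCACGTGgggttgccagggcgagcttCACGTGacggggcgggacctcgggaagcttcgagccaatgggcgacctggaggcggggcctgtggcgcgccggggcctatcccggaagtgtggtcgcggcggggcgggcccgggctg
Eif4ebp2: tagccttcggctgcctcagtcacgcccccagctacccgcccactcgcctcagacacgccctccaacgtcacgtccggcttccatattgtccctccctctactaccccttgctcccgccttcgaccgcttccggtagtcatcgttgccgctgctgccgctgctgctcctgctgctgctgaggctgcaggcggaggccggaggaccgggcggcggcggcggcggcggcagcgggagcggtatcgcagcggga
The Eif5a2 stretch held 2 E-boxes, which began 142 and 117 bases before the start site. The Eif4ebp2 stretch held none.

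RefSeq promoters were matched for 32 of the 41 genes, 44 start sites in all. An E-box lay in 10 of these 44 windows (22.7%), against 1978 of 32851 windows (6.02%) over all genes, and windows of 1 gene can overlap. By gene, 8 of 32 members (25.0%) had at least 1, against 6.86% of 27025 genes. These genes were not matched to the members for expression or base composition, so the shares are not like for like. The letters TGATGNAA, the element bound by the stress factor ATF4, were searched on both strands, while CACGTG reads the same on both. The motifs can share the letters TG. TGATGNAA lay in 0 member windows and in 3.45% of all windows. The E-boxes of the other members are shown with 12 bases on each side, to set genes that moved beside genes that did not. In the order shown, the windows are chr3:138527028-138527057 and chr3:138527192-138527221 (plus strand) for Eif4e, chr11:69672595-69672624 (minus strand) for Eif4a1, chr5:134639488-134639517 (minus strand) for Eif4h, chr11:69920791-69920820 and chr11:69921443-69921472 (minus strand) for Eif5a, chr9:120492570-120492599 (plus strand) for Eif1b, chr7:108934335-108934364 (plus strand) for Eif3f and chr7:28981915-28981944 (minus strand) for Eif3k.
Eif4e, first window: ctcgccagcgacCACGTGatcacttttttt
Eif4e, second window: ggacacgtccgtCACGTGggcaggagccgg
Eif4a1: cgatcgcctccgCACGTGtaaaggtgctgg
Eif4h: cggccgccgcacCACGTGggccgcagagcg
Eif5a, first window: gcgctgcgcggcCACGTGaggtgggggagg
Eif5a, second window: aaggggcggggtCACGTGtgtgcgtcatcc
Eif1b: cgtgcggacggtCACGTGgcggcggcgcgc
Eif3f: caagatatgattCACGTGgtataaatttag
Eif3k: ctggaaggaaatCACGTGgtagacaaaaaa
Of the 8 genes with an E-box, Eif5a2 rose, Eif4e fell and 6 were not called in tumour lines, by brightest probe set. Of the 11 genes that fell and had a promoter in the table, 1 held an E-box. This was Eif4e, whose probe sets were called in both directions, so that its fall is not firm. A match of letters is a description and says nothing of binding in these cells.

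In tumour lines, initiation factor genes changed by small amounts, and more of them fell than rose. Of 41 genes, 2 rose and 13 fell, while 16.6% of all genes tested rose and 19.4% fell. The share of members that fell was 31.7% and the share that rose 4.88%. Among the genes above the median level, 15 of 40 members fell (37.5%) and 4 rose (10%), against 33.7% and 24.8% of all such genes. The share that fell thus lay close to that of bright genes in general. The median difference of the members was -0.11, against 0.01 over all genes. At least a 2-fold change was reached by 1 called member, Eif5a2, and by 8.86% of all genes. Tumour lines all lay below the parental arrays for 17 members and all above them for 8, while these shares over all genes were 23.2% and 21.2%. In bulk RNA, fewer cells with a transcript and less of it per cell cannot be told apart. Without parental array 1, 8 genes fell (19.5%) and 1 rose (2.44%), against 15% and 12.7% of all genes.

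**Figure D1:**
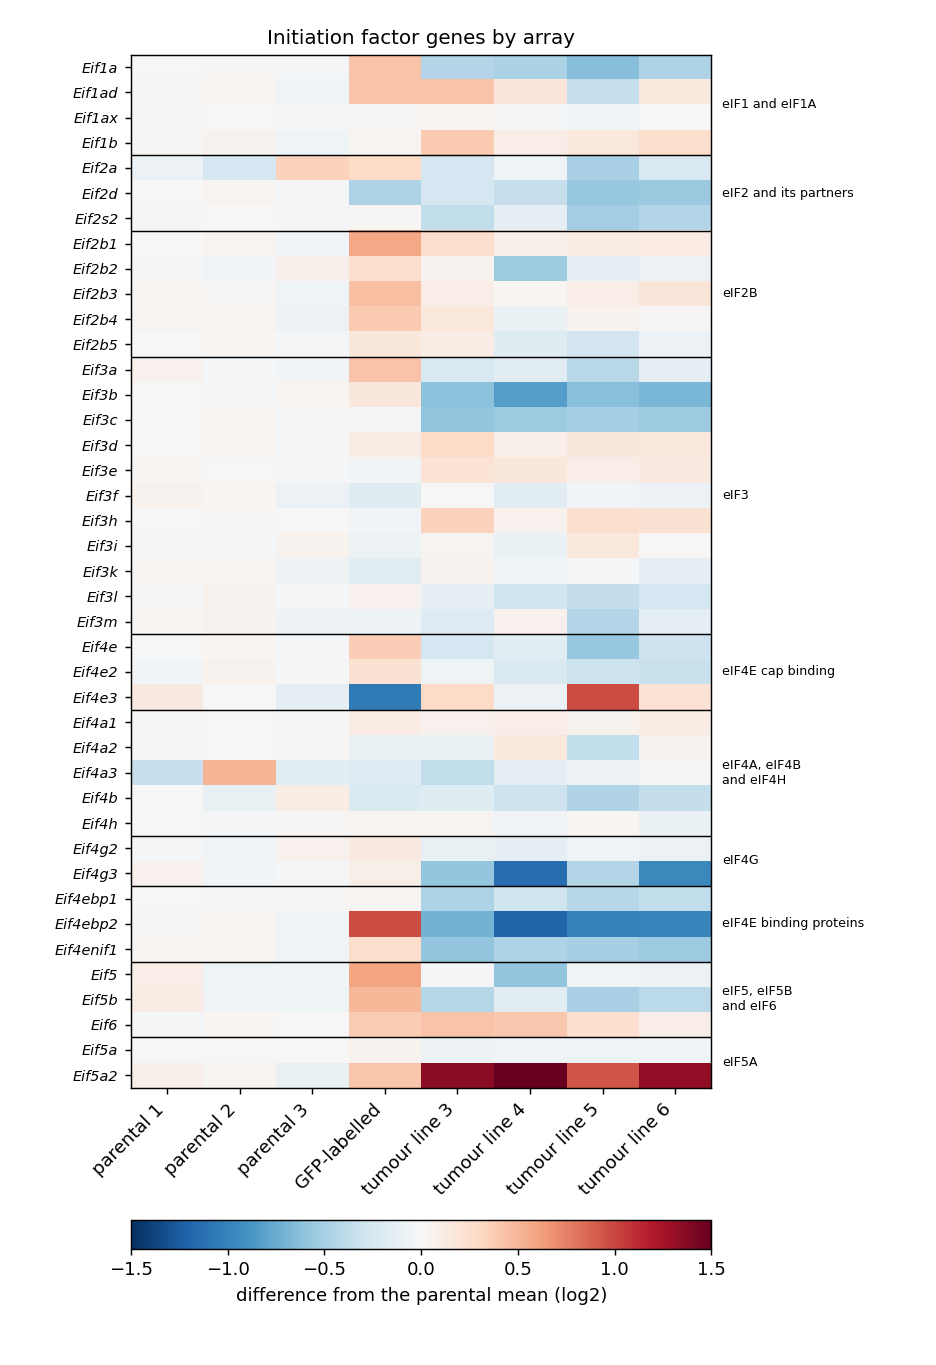
Heat map of the 41 genes (rows, grouped by factor) in the 8 arrays (columns), as the difference from the parental mean on the log2 scale. Eif5a2 is red in all 4 tumour lines, and Eif4ebp2, Eif4g3 and Eif3b are blue in all 4, while Eif4ebp2 is red in the array labelled GFP-transfected.

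The measured genes for eIF4E-binding proteins, Eif4ebp1, Eif4ebp2 and Eif4enif1, fell together. All 3 were lower in each tumour line than in each parental array, as were 23.2% of all genes. Among genes above the median level, 33.7% were called lower. Eif4ebp2, which encodes a repressor that competes with eIF4G for eIF4E, read 10.94, 10.97 and 10.86 in parental arrays 1 to 3. It read 10.21, 9.73, 9.91 and 9.92 in tumour lines 3 to 6, a difference of -0.98 (SE 0.11, 1.98-fold, limma adjusted p = 0.000222). The array labelled GFP-transfected stood above all others at 11.90. Line 4 was the lowest and line 3 the highest of the tumour lines, and the groups did not overlap. Of the other 4 probe sets of Eif4ebp2, 1 fell (-0.67), though not without parental array 1 or 3, and 3 were not called (-0.28 to 0.08). The mean over its 5 probe sets still fell, by 0.39.

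Eif4ebp1, the best known of these repressors and a target of mTOR, read 13.14, 13.12 and 13.16 in parental arrays. Tumour lines read 12.68, 12.84, 12.71 and 12.77 (-0.39, SE 0.07, 1.31-fold, limma adjusted p = 0.00202). The array labelled GFP-transfected, at 13.16, lay just above the highest parental array. The other probe sets of Eif4ebp1 also fell, by 0.44 and 0.51. Eif4enif1 encodes a protein that carries eIF4E into the nucleus and takes part in storing repressed messengers. It went from 11.41, 11.42 and 11.32 to 10.79, 10.91, 10.88 and 10.84 (-0.52, SE 0.07, limma adjusted p = 0.000413), and the array labelled GFP-transfected read 11.64. For each of these 3 genes, the gap between groups was wider than the spread within either.

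Eif4e itself, the cap-binding factor, was lower by its brightest probe set. Parental arrays read 12.47, 12.49 and 12.44, and tumour lines 12.20, 12.30, 11.90 and 12.16 (-0.33, SE 0.10, limma adjusted p = 0.0293). The groups did not overlap, and line 5 was lowest. The call ended when any 1 parental array, or tumour line 6, was left out. A dimmer probe set of Eif4e went the opposite way, from 6.39, 6.87 and 6.15 in parental arrays to between 7.71 and 8.07 in tumour lines (1.40, SE 0.17, limma adjusted p = 0.000296). It also read 8.14 in the array labelled GFP-transfected, and with that array pooled with the parental ones it was not called (0.99). Averaged over its 4 probe sets, Eif4e differed by 0.16 and was not called, so that no single direction holds for this gene. Which transcripts each probe set binds was not analysed here. Eif4e2, a cap-binding homologue known as a repressor, differed by -0.23 (SE 0.08) and was not called. Eif4e3, another homologue, differed by 0.35 (SE 0.22), was not called and varied most among the tumour lines.

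Scaffold and helicase genes of the cap complex split. Eif4g3, a scaffold that binds eIF4E and eIF4A, fell from 10.45, 10.35 and 10.37 to 9.81, 9.24, 9.95 and 9.42 (-0.78, SE 0.16, 1.72-fold, limma adjusted p = 0.00552). Lines 4 and 6 were lower than lines 3 and 5, and none reached the parental range. The other 3 probe sets of Eif4g3 differed by -0.01 to 0.01, and their mean with the brightest was not called (-0.19). Eif4g2, a related scaffold without the eIF4E site, differed by -0.10 (SE 0.06) and was not called, though 1 of its 5 probe sets fell by 0.39.

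Eif4a1, the main helicase, lay at 13.85 to 13.88 in parental arrays, against 13.93 to 13.98 in tumour lines. It was not called (0.09, SE 0.06, limma adjusted p = 0.323), and none of its 3 probe sets was. Its close relative Eif4a2 read 12.59 to 12.63 in parental arrays, against 12.25 to 12.78 in tumour lines, which overlapped (-0.07, SE 0.12). Eif4b, a cofactor that stimulates the helicase, fell in all 3 of its probe sets. By the brightest it went from 12.39, 12.29 and 12.51 to 12.21, 12.09, 11.95 and 12.04 (-0.33, SE 0.09, limma adjusted p = 0.0194). Without parental array 1 or 3 that probe set was not called. Another probe set of Eif4b fell by 0.84 (SE 0.07), from 11.03, 11.09 and 11.14 to 10.35, 10.18, 10.19 and 10.28. The similar cofactor gene Eif4h differed by -0.02 (SE 0.07) and was not called, and its 6 probe sets lay between -0.04 and 0.03. Eif4a3, a helicase of the exon junction complex, was dim in all arrays (5.67 to 6.55) and was not called.

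**Figure D2:**
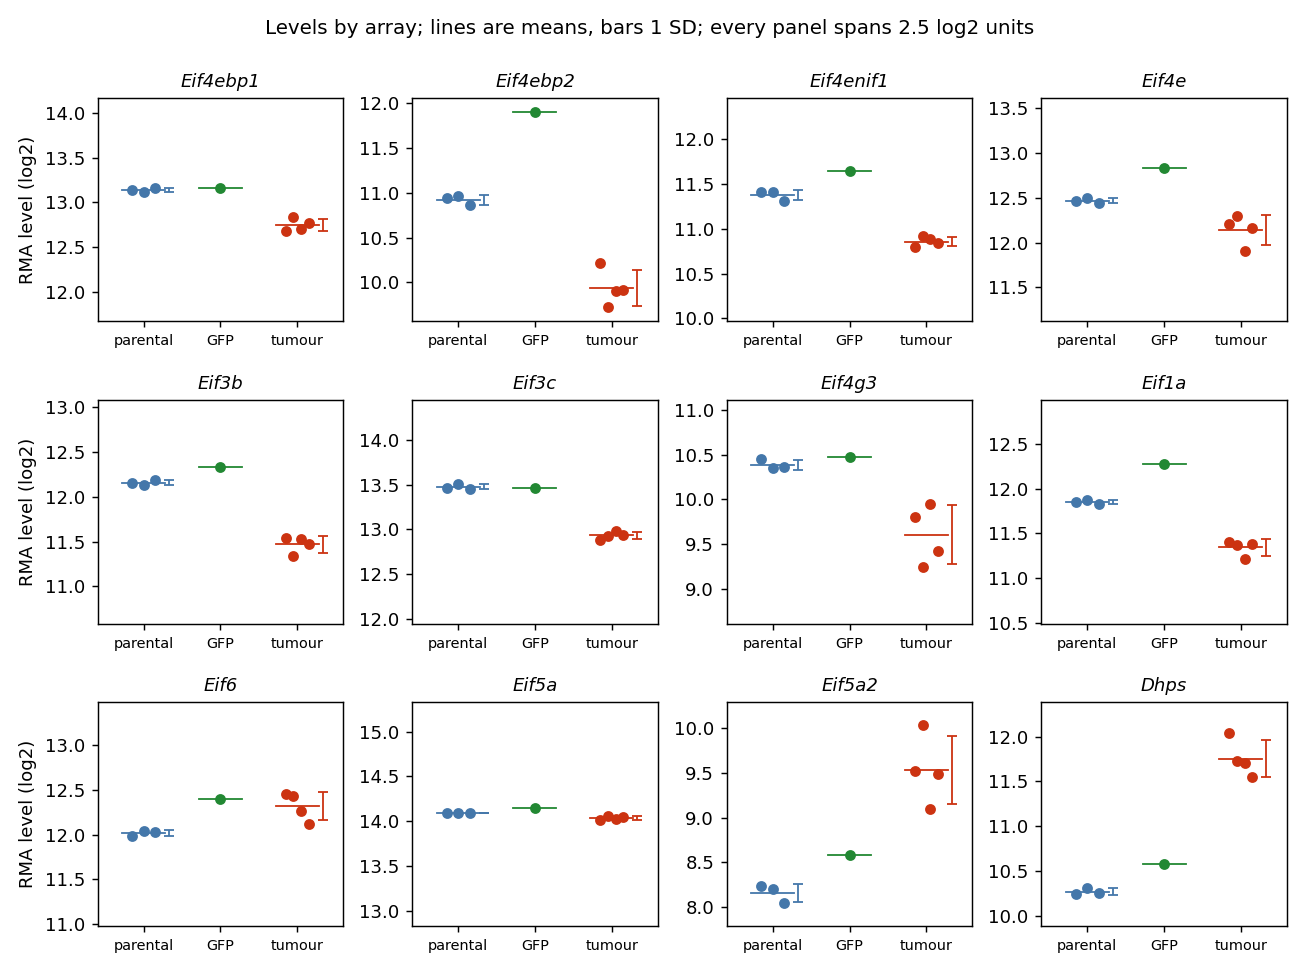
RMA level on the log2 scale in each array for 12 genes, with group means as lines and 1 SD as bars, each panel spanning the same 2.5 log2 units. The tumour lines lie below all parental arrays for Eif4ebp1, Eif4ebp2, Eif4enif1, Eif4e, Eif3b, Eif3c, Eif4g3 and Eif1a, above them for Eif6, Eif5a2 and Dhps, and within a narrow band just below them for Eif5a.

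eIF3, the largest factor, holds the small subunit and the messenger together. Of its 11 genes measured, 0 rose, 3 fell and 8 were not called, with a median difference of -0.07. Over all genes 16.6% rose and 19.4% fell, and among genes above the median level 33.7% fell. At an unadjusted limma p under 0.05, 3 were higher and 4 lower. Eif3b, a core subunit, fell most, from 12.15, 12.13 and 12.19 to 11.54, 11.34, 11.53 and 11.47 (-0.69, SE 0.07, 1.61-fold, limma adjusted p = 0.000156). Eif3c, which contacts eIF1 and eIF5, went from 13.47, 13.51 and 13.46 to 12.88, 12.93, 12.98 and 12.94 (-0.54, SE 0.06, 1.46-fold, limma adjusted p = 0.000226). All 4 of its probe sets fell, by 0.46 to 0.78. The groups stood well apart for both genes, with SDs of 0.03 to 0.09.

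Eif3a, the largest core subunit, was not called by its brightest probe set (-0.24, SE 0.09, limma adjusted p = 0.0622). It read 12.99, 12.91 and 12.88 in parental arrays and 12.70, 12.77, 12.50 and 12.79 in tumour lines, without overlap. Its other 3 probe sets fell, by 0.45, 0.51 and 0.55, and the mean of all 4 was called (-0.44, limma adjusted p = 0.00969; the alternatives ran from that p to 0.193). Eif3l, a peripheral subunit, fell by 0.26 (SE 0.08, limma adjusted p = 0.0276). That call ended when any 1 parental array was left out, without tumour line 4, 5 or 6, and with the mean of its probe sets (-0.06). Eif3d (0.18), Eif3e (0.15) and Eif3h (0.22) lay above the parental arrays in all 4 tumour lines and were not called. Eif3f, Eif3i, Eif3k and Eif3m overlapped between groups and differed by -0.18 to 0.03.

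Among genes for scanning factors, 1 of 4 was called, as a fall, while 19.4% of all genes fell. Eif1a, an autosomal gene for eIF1A, fell from 11.85, 11.87 and 11.83 to 11.41, 11.37, 11.21 and 11.39 (-0.51, SE 0.07, 1.42-fold, limma adjusted p = 0.00075). Its second probe set fell by 0.35. Eif1ax, the X-linked gene for the same factor, differed by -0.01 (SE 0.06) with all tumour lines at 12.66 to 12.74. Another Eif1ax probe set rose by 0.45 (SE 0.08), from 10.07 to 10.13 in parental arrays to 10.41 to 10.61 in tumour lines. The coding parts of Eif1a and Eif1ax are alike, and cross-binding of their probe sets was not analysed here. Eif1b, a homologue of the start-codon factor eIF1, read 10.78 to 10.90 in parental arrays, against 10.95 to 11.24 in tumour lines, and was not called (0.23, SE 0.09). Eif1ad, a gene named for its eIF1A-like domain, differed by 0.10 (SE 0.16) and was not called.

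Of 3 genes for the initiator tRNA carrier and its partners, 2 fell, against 19.4% of all genes and 33.7% of those above the median level. Eif2s2, the beta subunit of eIF2, went from 13.79, 13.78 and 13.76 to 13.41, 13.63, 13.26 and 13.34 (-0.37, SE 0.09, limma adjusted p = 0.0144). Of its 6 probe sets, 4 fell, and the brightest was not called without parental array 1. Eif2d, which can place tRNA without eIF2, fell from 11.11, 11.16 and 11.08 to 10.86, 10.77, 10.55 and 10.56 (-0.43, SE 0.09, limma adjusted p = 0.00598). The array labelled GFP-transfected read 10.65, within the tumour-line range. With that array pooled with the parental arrays, Eif2d was not called (-0.32), nor was the mean of its probe sets (-0.19). Of the 6 probe sets of Eif2d, 3 fell, 1 rose and 2 were not called. Besides the brightest, those that fell differed by -0.43 and -0.33. A dim probe set of Eif2d rose by 0.30, from 6.72 to 6.83 to 7.02 to 7.13. Eif2a, a separate tRNA-binding factor, differed by -0.26 (SE 0.15), overlapped between groups and was not called.

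All 5 eIF2B genes were measured, the exchange factor that returns eIF2 to its active form, and 0 were called in tumour lines by the brightest probe set. Over all genes 16.6% were called higher and 19.4% lower. No eIF2B gene had an unadjusted limma p under 0.05, and the smallest was 0.0676. The differences of these genes ran from -0.17 for Eif2b2 to 0.15 for Eif2b1. Eif2b5, the catalytic subunit, read 10.73 to 10.78 in parental arrays, against 10.46 to 10.86 in tumour lines. Eif2b2 is the exception when other probe sets are used, since its dimmer ones fell by 0.38 each and were called.

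Of the genes that act at subunit joining, 1 rose and 1 fell, while 16.6% of all genes rose and 19.4% fell. Eif6, whose product keeps the large subunit from joining too early, rose from 11.98, 12.04 and 12.03 to 12.45, 12.43, 12.27 and 12.12 (0.30, SE 0.09, limma adjusted p = 0.036). Its second probe set rose by 0.70 (SE 0.09), from 8.50, 8.69 and 8.64 to 9.35, 9.46, 9.19 and 9.24. The array labelled GFP-transfected was at 12.40 and 9.35 with these probe sets, inside the tumour-line range. With that array pooled with the parental ones the second was not called (0.51). The brightest was not called with it pooled with the parental ones (0.20), nor when any 1 parental array or tumour line 3, 4 or 5 was left out. Eif5b, the GTPase that joins the subunits, fell from 10.32, 10.17 and 10.15 to 9.78, 10.06, 9.73 and 9.81 (-0.37, SE 0.10, limma adjusted p = 0.0166). A second probe set of Eif5b fell by 0.46 and the last, at 0.14, was not called. The brightest was not called without parental array 1 (-0.31), nor was the mean of the 3 (-0.23). Eif5, which triggers GTP hydrolysis on eIF2 at the start codon, was not called by its brightest probe set (-0.19, SE 0.14), although 2 of its other 4 fell, by 0.33 and 0.68.

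Between tumour lines and parental arrays, Eif5a2 held the largest difference of all members by brightest probe set. eIF5A carries hypusine, a modified lysine found in no other known protein, and helps the ribosome through difficult stretches. Eif5a2, the gene of the second form, read 8.24, 8.20 and 8.04 in parental arrays and 9.51, 10.03, 9.10 and 9.49 in tumour lines. The difference was 1.37 (SE 0.19, 2.59-fold, limma adjusted p = 0.000636), and every tumour line stood above the highest parental array. Its other probe set rose by 1.12 (SE 0.11), from 6.81, 6.77 and 6.93 to 7.91, 8.08, 7.69 and 8.15. The array labelled GFP-transfected differed from parental arrays by 0.42 with the first probe set, not called, and by 0.91 with the second, which was called at a limma adjusted p of 0.00926 over all probe sets. Eif5a, the widely expressed gene, read 14.09 to 14.10 in parental arrays, against 14.01 to 14.05 in tumour lines (-0.06, SE 0.06, not called).

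Hypusine is made by Dhps and Dohh. Dhps, the deoxyhypusine synthase gene, went from 10.24, 10.31 and 10.25 to 12.04, 11.73, 11.71 and 11.55 (1.49, SE 0.11, 2.80-fold, limma adjusted p = 2.38e-05). The array labelled GFP-transfected read 10.58 and was not called. Dohh, which completes the modification, differed by 0.20 (SE 0.09) and was not called. Of 6 genes that control eIF2 by phosphorylation, 3 rose and 2 fell, while 16.6% of all genes rose and 19.4% fell. The kinase genes Eif2ak2, switched on by double-stranded RNA, and Eif2ak3, by stress in the endoplasmic reticulum, rose by 1.47 (SE 0.21) and 0.71 (SE 0.10). The phosphatase subunit gene Ppp1r15a rose by 0.93 (SE 0.08). The amino acid sensor kinase gene Eif2ak4 fell by 0.63 (SE 0.14) and the phosphatase subunit gene Ppp1r15b by 0.41 (SE 0.07).

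**Figure D3:**
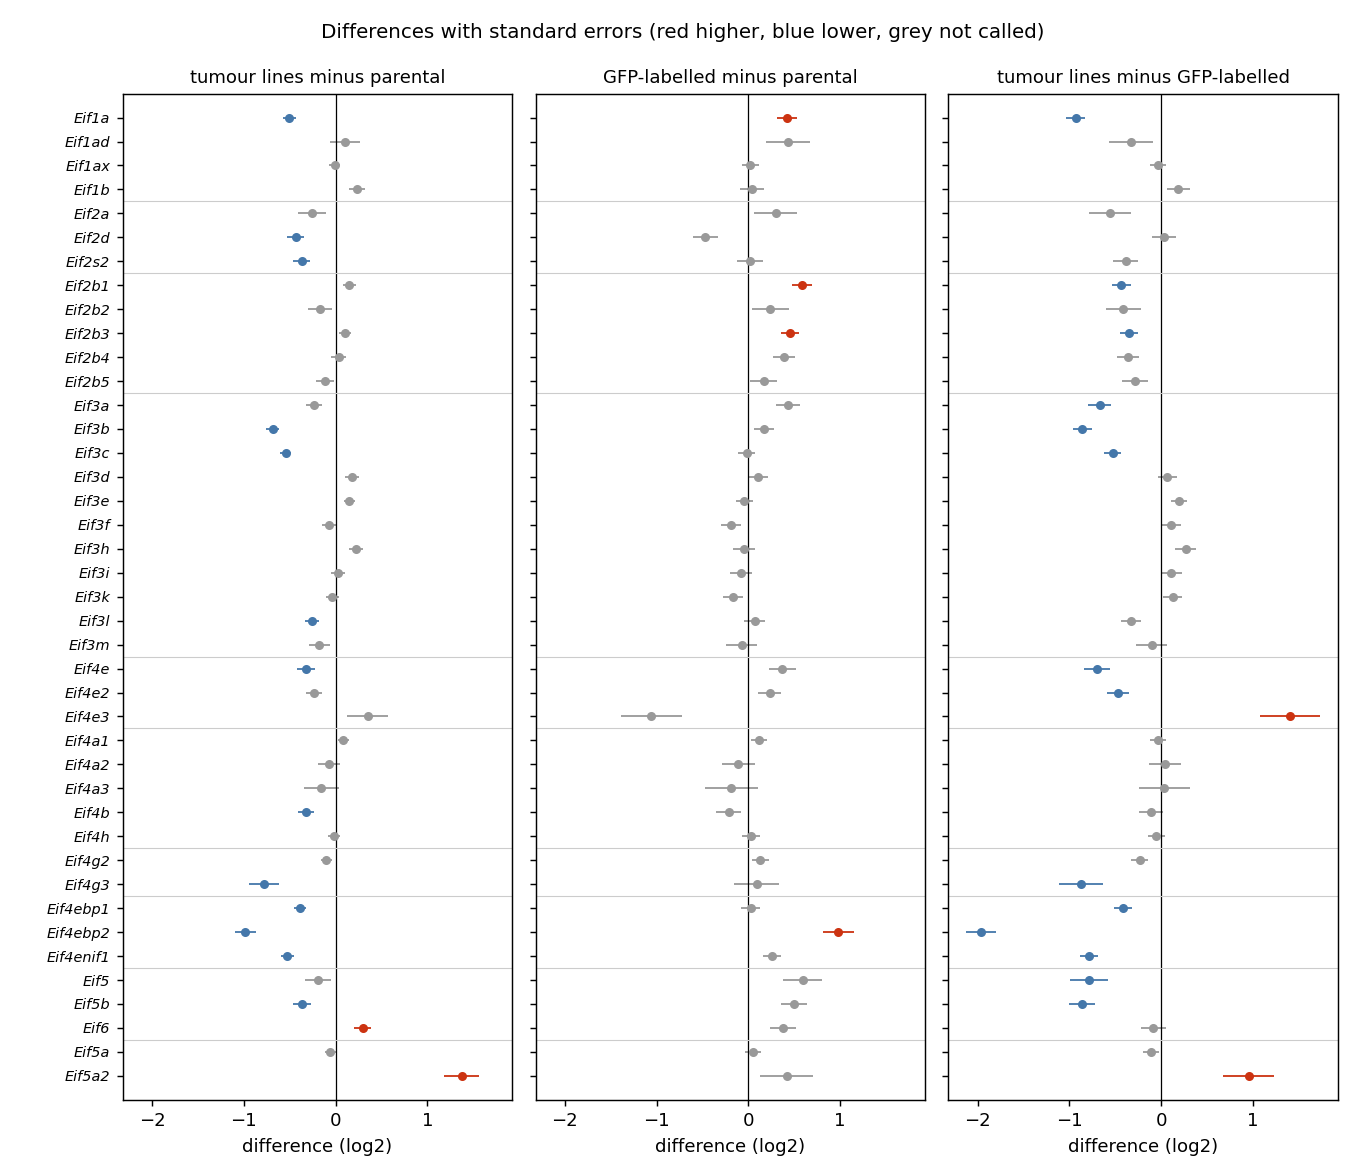
Differences on the log2 scale with standard errors for the 41 genes in the 3 comparisons, which share arrays. In tumour lines against parental arrays 13 genes are blue and 2 red, in the array labelled GFP-transfected against parental arrays 4 are red and 0 blue, and in tumour lines against that array 14 are blue and 2 red.

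Against parental arrays, the array labelled GFP-transfected had 4 of 41 members higher and 0 lower, while 7.43% of all genes were higher and 8.66% lower. At an unadjusted limma p under 0.05, 2 members were lower and 11 higher. The share of 9.76% that rose is near that over all genes. This array has no replicate and was assumed to vary like the others. Its median difference over members was 0.11, against -0.002 over all genes, and 29 of 41 members lay above the parental mean. Single parental arrays leaned to 1 side as well. In parental array 2, 26 members lay above that mean, and in parental array 3, 30 lay below it. The share of all genes above the mean was not analysed here. Markers of cell types moved in this array too. The endothelial marker Cdh5 was higher by 1.96 (SE 0.15), as 1 of 5 in its list. The leukocyte marker Cd68 was higher by 0.75 (SE 0.14), as 1 of 7, with the log2 of the summed levels at 9.31, Ptprc at 4.25 and Itgam at 4.19. The neural crest markers Snai2 (-0.82, SE 0.18) and Pax3 (-1.21, SE 0.27) were lower, as 2 of 11, and the epithelial marker Epcam (-0.68, SE 0.13), as 1 of 3. Their part in the values of this array was not tested. The called members were Eif4ebp2 (0.98, SE 0.17, limma adjusted p = 0.0056), Eif2b1 (0.58, SE 0.11, limma adjusted p = 0.00779), Eif2b3 (0.45, SE 0.10, limma adjusted p = 0.0182) and Eif1a (0.42, SE 0.11, limma adjusted p = 0.0321). Eif2b1 and Eif2b3 encode a regulatory and a catalytic subunit of eIF2B. All 5 eIF2B genes lay above the parental mean in this array, by 0.17 to 0.58. Eif5 was as high (0.59, SE 0.21) but was not called. Eif4e3 had the lowest difference (-1.06, SE 0.34), then Eif2d (-0.47, SE 0.14) and Eif4b (-0.21, SE 0.13), and these were not called. The mean of the Eif4ebp2 probe sets was not called either. Eif1a was not called when any 1 parental array was left out, nor Eif2b3 without parental array 3.

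Against the same array, tumour lines had 14 of 41 members lower and 2 higher, while 16.4% of all genes were lower and 14% higher. Among genes above the median level, 17 of 40 members were lower (42.5%) and 2 higher (5%). Of all such genes, 30% were lower and 23.1% higher. Eif4ebp2 stood furthest below, by 1.96 (SE 0.16, 3.90-fold, limma adjusted p = 5.38e-05), followed by Eif1a (-0.93, SE 0.11) and Eif4g3 (-0.87, SE 0.24). Eif4e3 (1.41, SE 0.32) and Eif5a2 (0.96, SE 0.28) were higher. Next came Eif3h (0.27, SE 0.12), which was not called. The Eif5a2 call ended when any 1 parental array was left out, without tumour line 3 and with the mean of its probe sets. This comparison shares its arrays with both others, so that its values are no separate evidence.

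**Figure D4:**
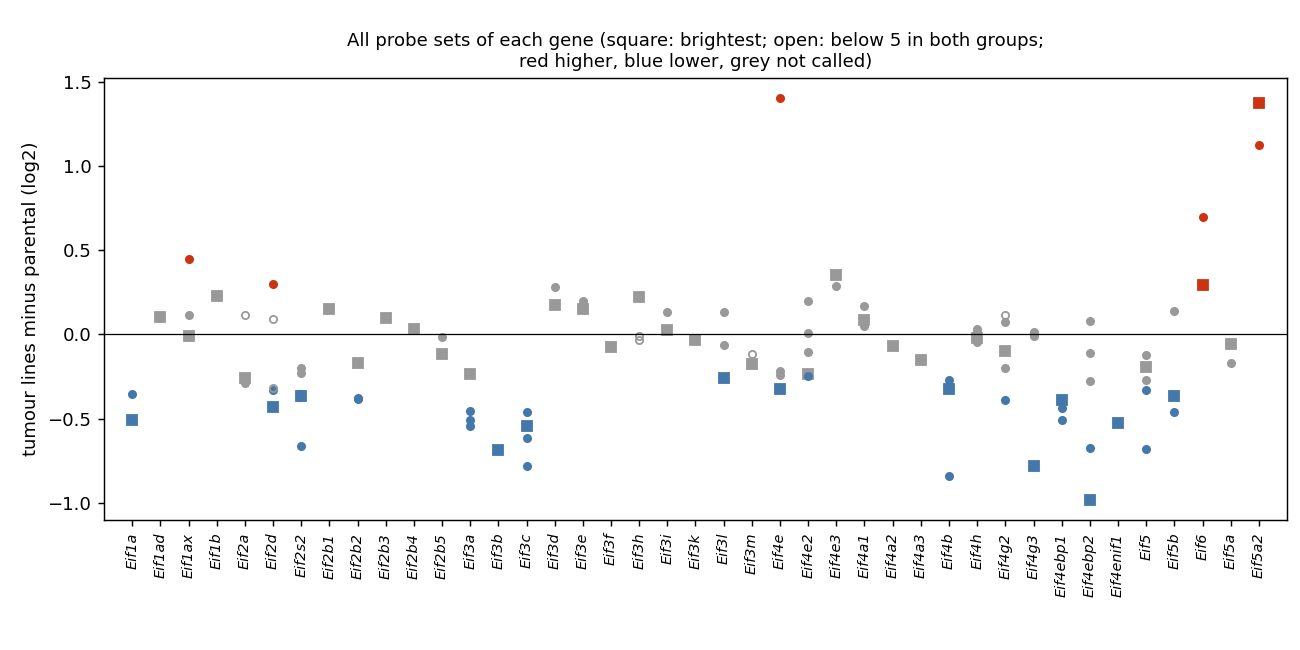
Difference of tumour lines from parental arrays on the log2 scale for all 115 probe sets, by gene, with squares for the brightest probe set and open marks for probe sets below 5 in both groups. Eif4e and Eif2d have probe sets called in both directions, while all probe sets of Eif3c, Eif4b and Eif4ebp1 lie below 0 and both of Eif5a2 lie above it.

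Over all 115 probe sets tested singly, 7 rose and 37 fell, against 15.5% and 18.4% of the 34945 probe sets with a single symbol. The shares among bright probe sets alone were not analysed here. Of the 31 genes with several probe sets, 6 had all of them called in one direction, 12 had none called and 2, Eif4e and Eif2d, had calls in both directions. In 8 probe sets both groups read below 5, close to the floor, so that little can be read from them.

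The tumour lines also differed among themselves. The median SD over the 4 lines was 0.119 for members and 0.128 for all genes, and over parental arrays it was 0.050 and 0.080. The labels do not say whether the 3 parental samples were grown separately, so p-values measure only the spread between these samples, which may be technical. The largest SDs were those of Eif4e3 (0.45), Eif5a2 (0.38) and Eif4g3 (0.33). Eif4e3 read 9.61, 9.22, 10.29 and 9.53 in lines 3 to 6, with line 5 highest, and 8.26 in the array labelled GFP-transfected. Line 5 was highest and line 4 lowest with its other probe set too. By brightest probe set, line 4 had the highest Eif5a2 and the lowest Eif4ebp2 and Eif4g3, while line 6 had the highest Eif5a2 with its other probe set. Line 5 was the lowest of the lines for 17 of 41 members and line 3 the highest for 22. The medians of the members against the parental mean were -0.06, -0.14, -0.12 and -0.09 in lines 3 to 6.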

How the data were processed

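RNA of cultured cells was measured on 8 Affymetrix arrays, and the authors deposited log2 values per probe set. The values were made with RMA and Partek, per the submitters' processing notes, which give neither version nor order. Promoter sequences and coordinates came from RefSeq on GRCm38.p6; the build behind the array annotation was not used here. No raw intensities were used. Of 45101 probe sets, 64 were controls, 932 had several symbols and 9160 had none in the platform annotation. All 115 member probe sets had their gene in RefSeq.

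Groups were compared with limma 3.58.1 (R 4.3.3, lmFit and eBayes, 1 coefficient per group, all 8 arrays, two-sided), with Benjamini-Hochberg adjustment over 18193 genes or 34945 probe sets. The fit was tested on simulated data. The number of arrays limits the precision. The members, gene lists and marker lists were chosen with earlier results of these data known. Genes were named by a rule: a set of main factors whatever the test, up to 5 called members per factor, the 3 largest rises and falls against the single array, the 3 most variable members, members with opposite calls and up to 4 called genes in each other list. Of these, Eif1, Eif2s1 and Eif4g1 were not analysed here. Other probe sets and remaining members are given with their values. Alternatives covered the probe set per gene, dim genes, the variance prior, array weights, normalization, the single array and each array left out.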

Additional observations from a re-analysis of the deposited data

Results flagged for a closer look

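Eif5 in tumour line 4 stood apart from the other tumour lines. It read 11.88 there and 12.38 to 12.44 in lines 3, 5 and 6, so that the gap took up 0.885 of the range of the 4 lines, above Dixon's critical value for 4 samples. Chance gives about 1 such gap in 20 groups, and 1 was found among the 41 genes examined. Without line 4, the difference of Eif5 from parental arrays was -0.06 (limma adjusted p = 0.592), against -0.19 with it.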

How the results depend on the processing

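Of the 15 genes called in tumour lines against parental arrays, Eif1a, Eif3b, Eif3c, Eif4ebp1, Eif4ebp2, Eif4enif1 and Eif5a2 (7) kept their call under every alternative run. With 2 genes higher as reported, 4 were higher among genes above the median level (10%, against 24.8% of all genes), 5 with a trended and robust variance prior (12.2%, against 16.5%) and 4 with array weights (9.76%, against 18.2%), and 1 to 3 when 1 array was left out. The 13 lower genes became 8 to 14 when 1 array was left out, with 8 (19.5%, against 15% of all genes) without parental array 1. In the array labelled GFP-transfected, the 4 higher genes became 7 above the median level (17.5%, against 14.4% of all genes) and 8 with array weights (19.5%, against 10.4%), and 2 to 7 with 1 array left out (2 without parental array 3, 7 without tumour line 4 or 5). Its 0 lower genes became 2 above the median level (5%, against 15.4% of all genes) and 1 with the trended prior (2.44%, against 8.53%). They became 2 with array weights (4.88%, against 11.2%) and 1 with repeated quantile normalization (2.44%, against 8.59%). With 1 array left out they became 0 to 2 (2 without tumour line 5, 4.88%, against 9.32%). In tumour lines against that array, the 2 higher genes became 1 with the mean of probe sets (2.44%, against 13.7% of all genes). They became 1 to 3 with 1 array left out (3 without tumour line 4, 7.32%, against 15%). Of probe sets, the 7 higher became 11 with the trended prior, and the 37 lower became 23 to 36 with 1 array left out (23 without parental array 1). The shares over all probe sets under these alternatives were not analysed here. With probe sets averaged per gene, Eif4e turned to 0.16 and Hbs1l to 0.043, neither called. Members had 653 values under the alternatives in tumour lines against parental arrays, called or not. Of these, 15 were uncalled and had another sign than the uncalled main value. The cause of these changes was not tested. No paired analysis was possible, because the labels link no tumour line to a parental array.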

Other observations

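Other genes of translation moved in both directions in tumour lines. Of 54 measured in 7 lists, 12 rose and 17 fell against parental arrays, with a median difference of -0.04. Over all genes 16.6% rose and 19.4% fell, and among genes above the median level 24.8% rose and 33.7% fell. The counts of each list are to be read against these shares. Among 15 helpers of initiation, 5 rose and 5 fell. Dap, which encodes a repressor of translation and autophagy known as DAP1, rose by 2.16 (SE 0.08, 4.48-fold, limma adjusted p = 3.93e-07) and Mcts1, a partner of Denr in reinitiation, by 0.81 (SE 0.09). Bzw2, whose product resembles eIF5, fell by 1.32 (SE 0.12, limma adjusted p = 5.91e-05), and Pabpc4, a poly(A)-binding protein gene, by 0.66 (SE 0.08).

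Of 14 genes measured for mTOR and MNK signalling to eIF4E, 1 rose and 5 fell, against 16.6% and 19.4% of all genes. Sesn2, a stress-induced inhibitor of mTOR, fell by 1.15 (SE 0.14, limma adjusted p = 0.000394). The inhibitor genes Tsc1 (-0.66, SE 0.10) and Ddit4 (-0.64, SE 0.17) fell, as did Mtor itself (-0.41, SE 0.09) by its brightest probe set. The dimmer probe sets of Mtor differed by 0.14 and 0.09 and were not called. Larp1, which encodes a regulator of messengers downstream of mTOR, fell (-0.43, SE 0.11). Deptor, which encodes another inhibitor, rose by 0.48 (SE 0.10). Of 8 elongation genes measured, 0 rose and 3 fell: Eef2k, the kinase that slows elongation through eEF2, by 1.31 (SE 0.10, limma adjusted p = 2.27e-05), Eef1d by 0.25 and Eef2 by 0.22. In a list of 6 genes drawn up for termination and recycling, Gspt1, a release factor gene, rose by 0.20 (SE 0.06). Abcf1, counted in that list although it is not a termination or recycling factor, fell by 0.47 (SE 0.09). Hbs1l, a ribosome rescue gene, fell by 0.68 (SE 0.09) with its brightest probe set and rose by 0.78 with another. Of 3 mitochondrial initiation genes, Mtif3 rose by 0.48 (SE 0.11).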
